A study of Mus musculus with 5 samples.

Results

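The immediate early genes examined here are Fos, Fosb, Fosl2, Junb, Egr1, Egr2, Egr3, Nr4a1, Arc and Ier2. They were taken by a rule on gene symbols alone and make up 10 of the 25655 gene rows counted. All 10 passed the filter on low counts and were among the 14992 genes tested. Their RNA was measured in the injured retina of wildtype C57BL/6 mice 7 days after optic nerve crush (ONC), an injury in which the axons of retinal ganglion cells (RGCs) are pinched behind the eye. The mice, 8 to 10 weeks old in the study's methods, were injected intraperitoneally each day from the day before ONC, either with Sorbinil at 10 mg/kg or with its vehicle DMSO. Sorbinil inhibits aldose reductase, the enzyme that turns glucose into sorbitol. The vehicle group held DMSO replicates 1, 2 and 3 and the treated group Sorbinil replicates 1 and 3, 5 retinas in all. Sorbinil replicate 2 was not analysed here, and the counts hold no column for it. Per the methods, the authors left out 1 Sorbinil replicate after a principal component analysis of the mapped reads. The treated group was thus formed after its data had been seen. All 5 retinas were crushed, so that the comparison shows Sorbinil against DMSO after injury and not the effect of the crush. Between 56096541 and 90288552 reads were counted per retina. Levels are given as CPM, the counts of a gene scaled by TMM to the size of its library. The labels name no animal for a retina, so p-values measure the spread between these retinas.

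Immediate early genes are transcribed within minutes of a stimulus, without new protein synthesis, when kinases such as ERK activate factors that already sit at their promoters. Serum response factor binds the CArG box and CREB binds the cAMP response element (CRE), and both serve in this switch. The products are mostly transcription factors: FOS and JUN proteins pair to form AP-1, and EGR proteins bind GC-rich sites through zinc fingers. In the retina these genes respond to light, to synaptic activity and to injury, and Egr1 is known in amacrine cells, Fos in the inner retina.

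The promoters show which of these sites the genes carry. Fos, Fosb and Egr2 are printed because they share an arrangement of sites, and Ier2 because it alone of those searched holds a full CRE. Letters were read from GRCm39 at the start of the canonical GENCODE transcript, 5′ to 3′ on the strand of the gene. Capitals mark the CArG box, the core of the CRE (TGACG, or CGTCA on the other strand) and the TATA box (TATAAA). Fos (chr12:85520338-85520637, plus strand) and Fosb (chr7:19043997-19044296, minus strand) are shown from 320 to 21 bases before the start. Egr2 (chr10:67373572-67373671, plus strand) is shown from 120 to 21 bases before it. Ier2 (chr8:85389484-85389583, minus strand) is shown over the last 100 bases.
Fos: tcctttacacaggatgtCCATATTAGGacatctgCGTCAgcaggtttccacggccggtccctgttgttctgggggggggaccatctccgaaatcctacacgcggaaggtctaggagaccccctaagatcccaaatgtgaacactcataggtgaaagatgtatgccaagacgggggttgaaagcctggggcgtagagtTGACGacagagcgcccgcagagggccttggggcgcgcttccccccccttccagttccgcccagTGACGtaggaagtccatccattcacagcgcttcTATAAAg
Fosb: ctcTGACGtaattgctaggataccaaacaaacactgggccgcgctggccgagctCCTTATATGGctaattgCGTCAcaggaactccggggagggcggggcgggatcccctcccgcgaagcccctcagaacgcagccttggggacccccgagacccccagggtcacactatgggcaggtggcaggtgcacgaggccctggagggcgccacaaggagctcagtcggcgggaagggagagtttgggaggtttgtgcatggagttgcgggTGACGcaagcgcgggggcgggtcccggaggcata
Egr2: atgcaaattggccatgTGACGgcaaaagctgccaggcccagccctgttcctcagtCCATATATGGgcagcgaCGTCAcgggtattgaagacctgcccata
Ier2: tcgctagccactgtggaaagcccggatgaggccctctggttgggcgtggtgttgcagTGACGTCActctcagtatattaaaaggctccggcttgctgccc

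Within 500 bases before and 50 bases after the start, 3 of the 9 members searched held a CArG box on either strand, compared to 2.89% of 21769 protein-coding promoters. These were Fos (303 bases before the start), Fosb (266 bases) and Egr2 (65 and 368 bases). In all 3 a CGTCA followed a box after exactly 7 bases, as the printed stretches show. Of the 21769 promoters searched, 5 (0.0230%) had this arrangement on either strand, and the other two were Dusp5, which encodes a phosphatase that inactivates ERK, and Sik3, a kinase. The spacing was searched for after these sequences had been read. The core TGACG was found on either strand in 7 of the 9 members and in 29.8% of promoters, and the full CRE (TGACGTCA, which contains the core) in Ier2 alone and in 2.71% of promoters. The EGR site GCGNGGGCG lay in the promoters of Fosb, Nr4a1 and Arc and in 7.16% of all promoters, and the AP-1 site TGANTCA in that of Fos and in 13.2%. TATAAA, searched on the strand of the gene only, was found in Fos and Junb and in 16.3% of promoters. A match of letters is a description and not a measured binding site. Only exact matches in this window were counted, so variant or more distant sites of any member would be missed.

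Sorbinil replicate 1 stood apart from the other 4 libraries, and values without it are therefore given beside each member and each named pathway gene. Markers of inner retinal cells and vessels were low in it and photoreceptor markers were high. The summed level of 10 Müller glia markers was 2180 CPM in Sorbinil replicate 1, compared to 5702 to 6652 CPM in the DMSO retinas and 6158 CPM in Sorbinil replicate 3. For 9 amacrine markers the values were 366 CPM against 868 to 1131 CPM with DMSO and 1104 CPM in Sorbinil replicate 3. For 11 RGC markers they were 79.96 CPM against 166 to 261 CPM and 202 CPM, and for 17 markers of endothelial cells and pericytes 187 CPM against 377 to 572 CPM and 477 CPM. Kdr alone gave 277 of the 477 CPM in Sorbinil replicate 3. Of the 17 vessel markers, 16 were below every DMSO retina in Sorbinil replicate 1 and 12 in Sorbinil replicate 3. Their median log2 difference from the DMSO mean was -1.79 in replicate 1 and -0.47 in replicate 3. Rods, the most numerous cells of the mouse retina, had the largest sum in all 5 retinas. Their 10 markers summed to 122613 CPM in Sorbinil replicate 1 and to 63812 CPM in Sorbinil replicate 3, above and below the DMSO range of 74716 to 88031 CPM. No marker of these lists was at 0 in all retinas. In whole retina, fewer cells of a type and less RNA per cell cannot be told apart. Lens markers summed to 53.8 CPM in DMSO replicate 3 and 34.2 CPM in Sorbinil replicate 3, and to between 1.09 and 2.72 CPM in the other 3 retinas.

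**Figure D1:**
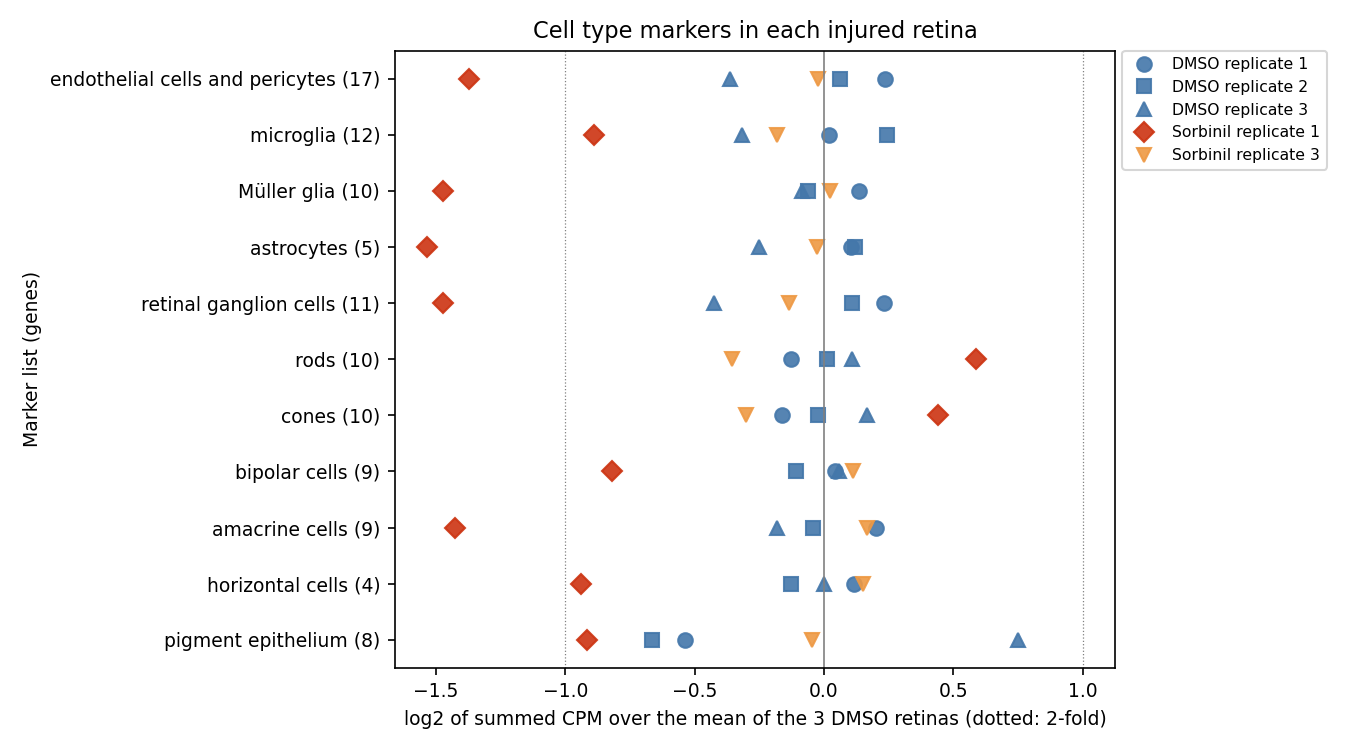
Summed level of each marker list in each retina, as log2 of the CPM sum over the mean of the 3 DMSO retinas (horizontal axis), for 11 lists with the number of genes in brackets. Sorbinil replicate 1 (red diamonds) lies to the left for Müller glia (2180 CPM) and to the right for rods (122613 CPM), away from the other 4 retinas.

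None of the 10 immediate early genes was called between Sorbinil and DMSO by the rule of the study applied in both directions, a raw (unadjusted) p of 0.1 or less with a change of at least 2-fold. By this rule 1.71% of all genes tested were called, and a count of 0 of 10 lies near that background. Without Sorbinil replicate 3, 2 members were called, Fosb (higher) and Fosl2 (lower), where 2903 of 15266 genes (19.0%) were called in all, and without any other retina 0 members were. The median log2 fold change of the members was -0.01, the same as over all genes tested (-0.01). With the sign left out, the median was 0.37 in the members and 0.21 over all genes tested. Point estimates ranged from -0.84 for Egr2 to 0.71 for Fosb, with 5 genes higher and 5 lower. Fosb and Egr1 had a raw p of 0.1 or less, both higher with Sorbinil, where 6.98% of genes tested did so in that direction. Neither held this in every setting by edgeR's quasi-likelihood test: raw p was 0.101 for Egr1 with library-size scaling, and for Fosb 0.298 without Sorbinil replicate 1 and 0.116 to 0.145 without each DMSO retina in turn. In these 2 genes each Sorbinil retina was above every DMSO retina, and in no member was each below. Over all genes tested, 12.8% were separated upwards and 10.5% downwards. With edgeR's quasi-likelihood test 0 members and 0 of all genes tested had an adjusted p under 0.05. A raw p under 0.05 was reached by 1 member (Egr1) and by 751 of the 14992 genes tested. By the DESeq2 Wald test 0 members had an adjusted p under 0.05, where 21 of all genes did. By that test 2 members had a raw p under 0.05, and the share of all genes that did was not counted.

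**Figure D2:**
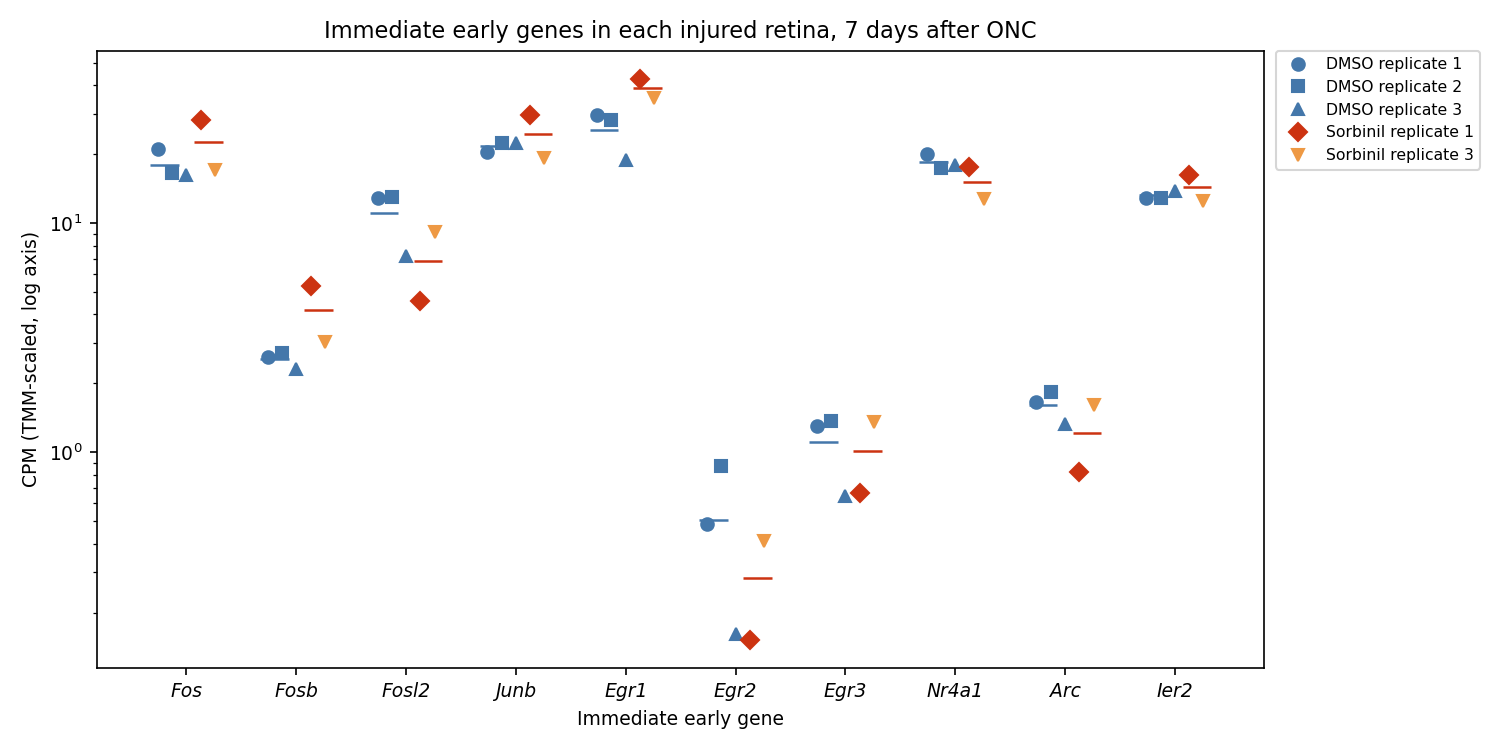
CPM of the 10 immediate early genes in each retina (log axis), with the mean of the 3 DMSO retinas (blue lines) and of the 2 Sorbinil retinas (red lines). For Egr1 and Fosb both Sorbinil points lie above all DMSO points, and for the other 8 genes the groups overlap.

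Per kilobase of the canonical transcript, the members formed a high and a low set in the DMSO retinas. Junb was highest, with 11.3 to 12.4 CPM per kilobase, above Ier2 (8.46 to 9.07) without overlap. The ranges of Ier2, Fos (7.65 to 10.03) and Nr4a1 (6.82 to 7.87) were not all separate, since Fos overlapped both neighbours. Egr1 followed with 4.21 to 6.59 CPM per kilobase. Fosl2 had 1.03 to 1.86, Fosb 0.614 to 0.721 and Arc 0.436 to 0.602. Egr3 (0.149 to 0.316) and Egr2 (0.055 to 0.295) were lowest and overlapped. With Sorbinil, Egr1 had 7.84 to 9.50 CPM per kilobase and Nr4a1 5.01 to 6.92, so that Egr1 was the higher of the pair there. This order depended on the length used. Per kilobase of all annotated exons, Junb (8.59 to 9.46 with DMSO) overlapped Ier2 and Fos (6.86 to 8.99), and Fosb (0.372 to 0.437) overlapped Arc (0.382 to 0.527). By that length Nr4a1, whose exons sum to 10.9 kb, was at 1.59 to 1.84 with DMSO and below Egr1 in both groups.

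Fos (ENSMUSG00000021250, chromosome 12 from 85520658 to 85524047, plus strand) encodes the AP-1 subunit that gives the family its name. It measured 21.2, 16.6 and 16.2 CPM in DMSO replicates 1, 2 and 3, and 28.2 and 17.1 CPM in Sorbinil replicates 1 and 3. Sorbinil replicate 1 was above every DMSO retina, and Sorbinil replicate 3 lay among them. The log2 fold change was 0.33 (standard error 0.25, 95% interval -0.30 to 0.96), with adjusted p = 0.758 (edgeR's quasi-likelihood test). Leaving out Sorbinil replicate 1 gave -0.06 and leaving out replicate 3 gave 0.65, so the direction rested on 1 retina.

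Fosb (ENSMUSG00000003545, chromosome 7 from 19036621 to 19043976, minus strand) encodes a FOS protein whose truncated form is known to build up under repeated stimulation. Its level was 2.61, 2.73 and 2.32 CPM with DMSO and 5.33 and 3.03 CPM with Sorbinil, from 129 to 280 counts. Both Sorbinil retinas were above all DMSO retinas (p = 0.1, two-sided, in an exact permutation of log2(CPM + 0.01), which is the lowest value that 2 against 3 retinas can give). Mean levels were 2.55 ± 0.21 CPM with DMSO (SD, n = 3) and 4.18 ± 1.62 CPM with Sorbinil (SD, n = 2). Sorbinil exceeded DMSO by 0.71 on the log2 scale (standard error 0.30, 95% interval -0.03 to 1.45), with a raw p of 0.0569 and adjusted p = 0.758 (edgeR's quasi-likelihood test). Leaving out Sorbinil replicate 1 gave 0.26 and leaving out replicate 3 gave 1.06. Relative to Fos in the same retina, a measure that no scaling can move, Fosb counts amounted to 12.3%, 16.4% and 14.3% in the vehicle group and to 18.9% and 17.7% in the treated group, without overlap. This ratio uses the same Fosb counts and is no second measurement. For Egr1 the ratio to Fos was 140%, 170% and 117% in the vehicle group and 151% and 206% in the treated group, with overlap.

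Fosl2 (ENSMUSG00000029135, chromosome 5 from 32292707 to 32315186, plus strand) encodes FRA2, a FOS protein that lacks the strong activation domain of FOS. Its level was 12.94, 12.97 and 7.22 CPM in the DMSO retinas and 4.57 and 9.18 CPM in the Sorbinil retinas. Sorbinil replicate 1 was the lowest, and Sorbinil replicate 3 was above DMSO replicate 3. Fitted over all retinas, the log2 fold change was -0.68 (standard error 0.40, 95% interval -1.68 to 0.31), with adjusted p = 0.758 (edgeR's quasi-likelihood test), and it was -0.26 without Sorbinil replicate 1. Within each retina, Fosl2 counts were 61.0%, 78.1% and 44.6% of the Fos counts with DMSO, while the Sorbinil retinas had 16.2% (replicate 1) and 53.7% (replicate 3). A long noncoding RNA gene overlaps Fosl2 on the opposite strand, and whether reads were counted by strand is not given.

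Junb (ENSMUSG00000052837, chromosome 8 from 85701113 to 85705359, minus strand) encodes a JUN partner of the FOS proteins. It varied little with DMSO, at 20.4, 22.5 and 22.3 CPM, and measured 29.7 and 19.3 CPM in Sorbinil replicates 1 and 3. The Sorbinil retinas lay on either side of the DMSO retinas. Its fitted difference was small, a log2 fold change of 0.17 (95% interval -0.33 to 0.68) and -0.16 without Sorbinil replicate 1. Prdx2 and a long noncoding RNA gene overlap Junb on the opposite strand.

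Egr1 (ENSMUSG00000038418, chromosome 18 from 34992876 to 34998049, plus strand) encodes the zinc finger factor also called ZIF268. Its level was 29.6, 28.2 and 18.9 CPM in the DMSO retinas and 42.7 and 35.3 CPM in the Sorbinil retinas. Both Sorbinil retinas were above all 3 DMSO retinas (p = 0.1 in the two-sided exact permutation, the lowest possible). The DMSO mean was 25.6 ± 5.8 CPM (SD, n = 3), and the SD of the Sorbinil retinas was 5.27 CPM (n = 2). The fitted level was 1.52-fold that with DMSO, or 0.61 on the log2 scale (standard error 0.22, 95% interval 0.05 to 1.16), with a raw p of 0.037, but adjusted over all genes p was 0.758 (edgeR's quasi-likelihood test). Egr1 moved least of the 10 genes between the fits that left out a Sorbinil retina, with 0.47 without replicate 1 and 0.74 without replicate 3. It was 0.43 without DMSO replicate 3, the lowest DMSO retina. In Sorbinil replicate 3 the rod sum was below the DMSO retinas (8 of 10 rod markers were below all of them) and the amacrine and Müller glia sums were within their range, and the part of these cells in the Egr1 level was not tested.

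Egr2 and Egr3, which encode close relatives of EGR1, were counted at far lower levels. DMSO replicate 3 was the lowest DMSO retina for both, as for Egr1. In Sorbinil replicate 1 Egr1 was above the DMSO mean (0.77 on the log2 scale), and Egr2 (-1.30) and Egr3 (-0.64) were below it. In Sorbinil replicate 3 Egr1 (0.49) and Egr3 (0.36) were above it and Egr2 was near it (-0.02). Egr2 (ENSMUSG00000037868, chromosome 10 from 67371305 to 67378018, plus strand) received 47, 70 and 9 reads in the vehicle group, and 8 and 28 in the treated group. As CPM these were 0.486, 0.876 and 0.162 with DMSO, and 0.152 and 0.413 with Sorbinil. The groups overlapped throughout, and the DMSO retinas alone spanned more than the difference between the groups. The log2 fold change of -0.84 had a 95% interval of -2.80 to 1.12, and was -0.32 without Sorbinil replicate 1 and -0.21 without DMSO replicate 2. Egr3 (ENSMUSG00000033730, chromosome 14 from 70314350 to 70320063, plus strand) measured 1.30, 1.38 and 0.648 CPM with DMSO and 0.666 and 1.36 CPM with Sorbinil. DMSO replicate 3 and Sorbinil replicate 1 were low and the other 3 retinas were alike. Its log2 fold change was -0.13 (95% interval -1.34 to 1.07) and turned to 0.29 without Sorbinil replicate 1 and to 0.05 without DMSO replicate 2. As a share of Egr1 counts in the same retina, Egr3 was 4.40%, 4.88% and 3.43% with DMSO, while the Sorbinil retinas had 1.56% (replicate 1) and 3.84% (replicate 3).

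Nr4a1 (ENSMUSG00000023034, chromosome 15 from 101151980 to 101172681, plus strand) encodes the orphan nuclear receptor NUR77. Of the 10 genes, only Nr4a1 differed from the DMSO mean more in Sorbinil replicate 3 than in replicate 1. It measured 20.1, 17.4 and 17.9 CPM with DMSO, and in the Sorbinil retinas 17.6 CPM (replicate 1) and 12.8 CPM (replicate 3). Sorbinil replicate 1 lay among the DMSO retinas and Sorbinil replicate 3 below them. Its log2 fold change was -0.28 (standard error 0.19, 95% interval -0.74 to 0.18), -0.52 without Sorbinil replicate 1 and -0.06 without Sorbinil replicate 3. With library-size scaling it was -0.41 (raw p 0.0377, edgeR's quasi-likelihood test), where the median of all genes was -0.11. Long noncoding RNA genes overlap Nr4a1 on both strands.

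Arc (ENSMUSG00000022602, chromosome 15 from 74540932 to 74544419, minus strand) encodes a synaptic protein that takes part in the removal of AMPA receptors. Its level was 1.67, 1.84 and 1.33 CPM with DMSO and 0.818 and 1.61 CPM with Sorbinil. Sorbinil replicate 1 was below all DMSO retinas and Sorbinil replicate 3 within them. The log2 fold change was -0.41 (95% interval -1.35 to 0.53), and at 0.00089 it was near 0 without Sorbinil replicate 1. Ier2 (ENSMUSG00000053560, chromosome 8 from 85387960 to 85389483, minus strand), a nuclear protein gene induced by growth factors, was the steadiest member. It measured 12.9, 12.96 and 13.8 CPM with DMSO and 16.2 and 12.5 CPM with Sorbinil, on either side of the DMSO retinas. Its log2 fold change was 0.12 (95% interval -0.29 to 0.53), and -0.07 without Sorbinil replicate 1.

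**Figure D3:**
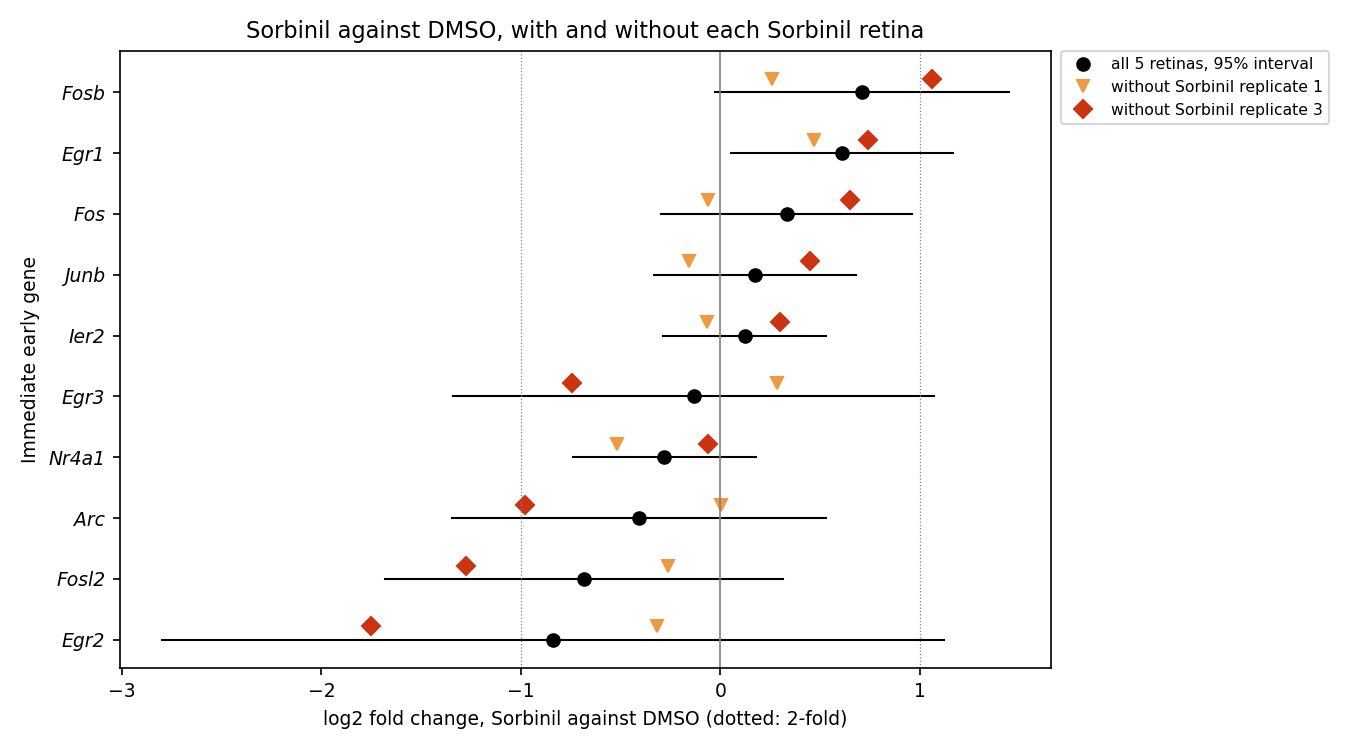
Log2 fold change of each immediate early gene, Sorbinil against DMSO, with all 5 retinas (black points with 95% intervals) and without each Sorbinil retina (coloured symbols). Only the interval of Egr1 (0.05 to 1.16) lies to one side of 0, and without Sorbinil replicate 1 all 10 values lie between -0.52 and 0.47.

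The members differed from each other most in Sorbinil replicate 1, where they parted in opposite directions. There Fos, Fosb, Junb, Egr1 and Ier2 were above every DMSO retina, with log2 differences from the DMSO mean of 0.66, 1.06, 0.45, 0.77 and 0.30. Fosl2, Egr2 and Arc were below every DMSO retina, at -1.22, -1.30 and -0.94, and Egr3 was at -0.64. For Egr2 this rested on 8 reads against 9 in DMSO replicate 3, which was itself at -1.23. Fosl2 and Egr2 were at least 2-fold below the DMSO mean in this retina, 2 of 10 members compared to 17.4% of all genes tested. The genes with a CArG box and CGTCA at 7 bases lay on both sides, Fos and Fosb above and Egr2 below. The low genes were low in this retina along with the inner retinal, glial and vessel markers. The high genes were high in it along with the rod markers. In DMSO replicate 3 the rod sum was the highest of the DMSO retinas (88031 CPM). There Ier2 was the highest of the DMSO retinas, Junb lay between them, and Fos, Fosb and Egr1 were the lowest. In Sorbinil replicate 3 the rod sum was below every DMSO retina. There Junb and Ier2 were below them too, Fos was within them, and Fosb and Egr1 were above. The part of cell makeup in these values was not tested. In Sorbinil replicate 3 the members ranged from -0.53 (Nr4a1) to 0.49 (Egr1), with 5 of 10 within the DMSO retinas, 3 below and 2 above. How many of all genes tested lay above or below every DMSO retina in a single Sorbinil retina was not counted. The numbers of members outside the DMSO retinas therefore have no background here and only describe these genes.

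**Figure D4:**
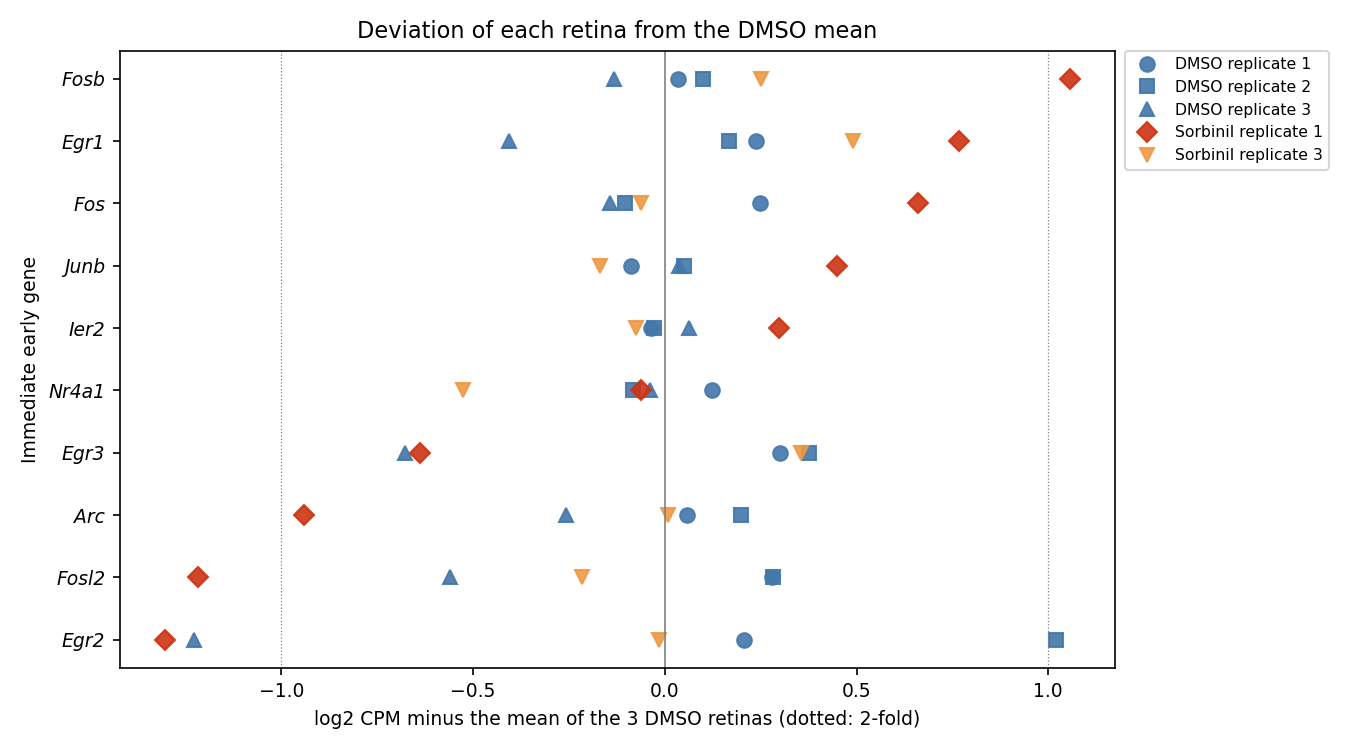
Log2 CPM of each immediate early gene in each retina minus the mean of the 3 DMSO retinas, ordered by Sorbinil replicate 1 (red diamonds). That retina spans -1.30 (Egr2) to 1.06 (Fosb), while Sorbinil replicate 3 (orange) stays between -0.53 and 0.49.

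The DMSO retinas also differed among themselves. DMSO replicate 3 was the lowest of the 3 for Fosl2, Egr1, Egr2, Egr3, Arc, Fos and Fosb, with log2 differences from the DMSO mean of -0.56, -0.41, -1.23, -0.68, -0.26, -0.14 and -0.13. Its sums of RGC, amacrine, Müller glia, astrocyte, endothelial and microglial markers were the lowest of the DMSO retinas too. The RGC sum, for example, was 166 CPM. Its sums of rod (88031 CPM), cone (1725 CPM) and bipolar (1436 CPM) markers were the highest of the DMSO retinas, and its horizontal cell sum lay between the others. It held the most lens and pigment epithelium RNA. The part of these markers in the low values was not tested. The SD within groups on the log2 scale had a median of 0.34 over the 10 members, compared to 0.24 over all genes tested. It was highest in Egr2 (1.07) and Egr3 (0.63) and lowest in Ier2 (0.16) and Nr4a1 (0.21).

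Other genes of the early response were examined in 5 lists of 110 genes, of which 108 were tested. Only 2 were called, both lower with Sorbinil, which is 1.85% of those tested and close to the 1.71% over all genes. After adjustment no pathway gene was below 0.05 by edgeR's quasi-likelihood test. Without a limit on the fold change, 8 genes (7.41%) had a raw p of 0.1 or less and were lower, and 10 (9.26%) were higher. Over all genes tested these shares were 4.33% and 6.98%. Without Sorbinil replicate 1 the counts were 5 and 7, and no pathway gene was called. The feedback phosphatase gene Dusp2 (5 to 7 counts in each retina) and the AP-1 target Mmp3 (2 counts in all) did not pass the filter on low counts.

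Among 38 other early response genes, the called genes were Klf2 and Klf4, zinc finger factors known in vascular endothelium. Klf2 measured 4.60, 4.23 and 2.02 CPM with DMSO and 0.780 and 2.02 CPM with Sorbinil, a log2 fold change of -1.36 (standard error 0.55, raw p 0.0512). The level in Sorbinil replicate 3 was nearly that in DMSO replicate 3, and the groups overlapped. Klf4 measured 1.27, 1.31 and 1.12 CPM with DMSO and 0.304 and 0.796 CPM with Sorbinil, a log2 fold change of -1.15 (standard error 0.46, raw p 0.0487). The study named Klf4 from these same libraries, which makes it no independent evidence. For both, adjusted p = 0.758 (edgeR's quasi-likelihood test), and neither was called without Sorbinil replicate 1, where the changes were -0.84 and -0.62, or without DMSO replicate 2. Without Sorbinil replicate 3, 27 of the 108 pathway genes (25.0%) were called, beside 19.0% of all genes in that fit. The list of endothelial cells and pericytes had 7 of 17 markers called lower, compared to 1.35% of all genes tested, and a median log2 fold change of -0.97. Leaving out Sorbinil replicate 1 gave 5 of 17, compared to 0.912% of all genes, and a median of -0.47. The part of these cells in the values of Klf2 and Klf4 was not tested. The smallest p-values in the list were, among lower genes, that of Per1, a clock gene that light induces, and among higher genes that of Btg2, an antiproliferative gene. Per1 measured 115, 120 and 112 CPM with DMSO and 86.6 and 75.4 CPM with Sorbinil, a log2 fold change of -0.51 (raw p 0.00638, adjusted p 0.758). Both Sorbinil retinas were lower than all DMSO retinas, and the change was -0.60 without Sorbinil replicate 1. Btg2 measured 84.5, 79.5 and 80.2 CPM with DMSO and 128 and 86.3 CPM with Sorbinil, a log2 fold change of 0.39 that was 0.09 without Sorbinil replicate 1. The median of the list was -0.35, compared to -0.01 over all genes tested. In Sorbinil replicate 1 it was -0.52 and in Sorbinil replicate 3 it was -0.03.

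**Figure D5:**
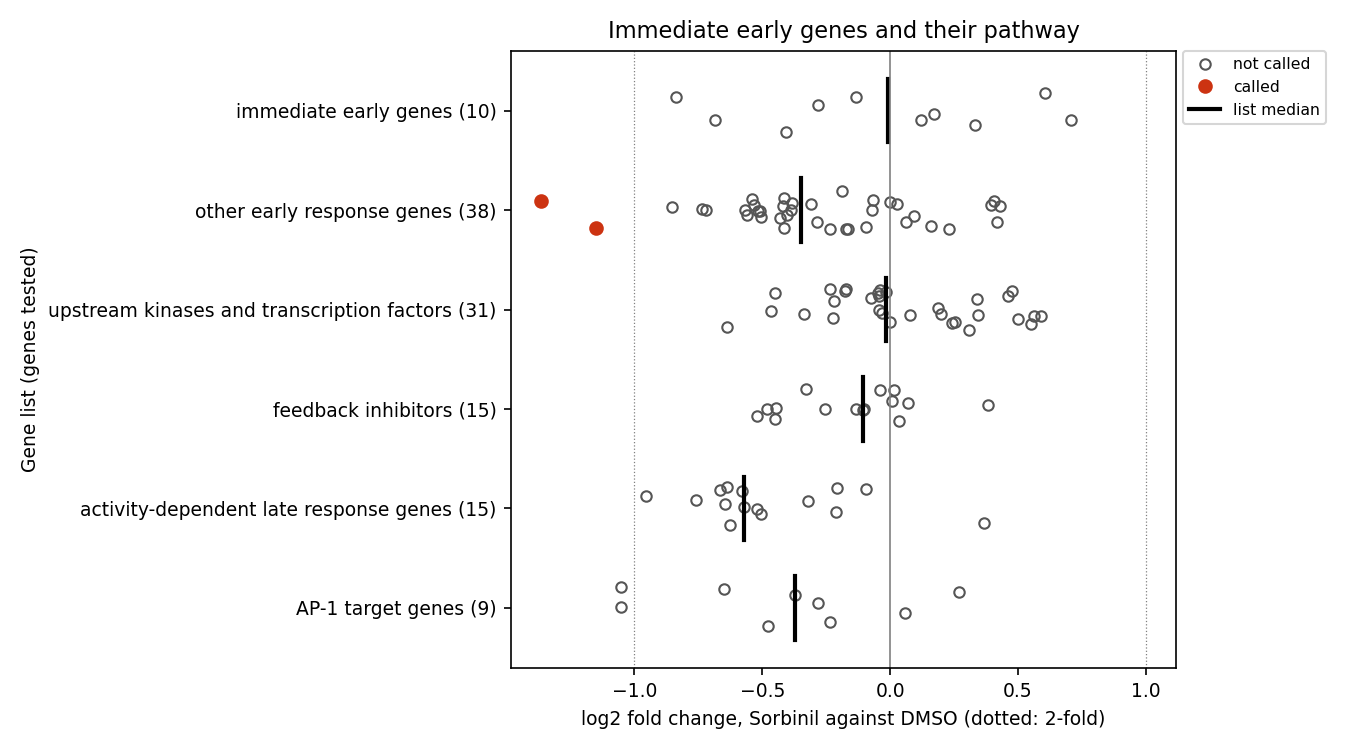
Log2 fold change of each tested gene, Sorbinil against DMSO, for the immediate early genes and 5 lists of their pathway (black bars, list medians, with random vertical spread of the points). The 10 immediate early genes centre on 0 and none is called, and the 2 called genes (red) are Klf4 and Klf2 among the other early response genes.

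Upstream kinases and transcription factors, which relay the stimulus to the promoters, had a median log2 fold change of -0.02 over 31 genes. None was called. At a raw p of 0.1 or less, 8 (25.8%) were higher and 1 (3.23%) was lower. Over all genes tested these shares were 6.98% and 4.33%. Without Sorbinil replicate 1, 3 of the 31 were higher, compared to 8.05% of all genes. Braf, a kinase at the head of the ERK cascade, was at 105, 107 and 106 CPM with DMSO and at 176 and 138 CPM with Sorbinil. The difference was 0.56 on the log2 scale (standard error 0.14, raw p 0.00788, adjusted p 0.758), and 0.39 without Sorbinil replicate 1. Elk3, a partner of serum response factor, measured 7.35, 6.24 and 5.60 CPM with DMSO and 3.96 and 5.30 CPM with Sorbinil, a log2 fold change of -0.47 that was -0.26 without Sorbinil replicate 1. For both genes the groups did not overlap.

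Feedback inhibitors, the phosphatases and repressors that end the response, had a median of -0.11 over 15 genes with none called and none at a raw p of 0.1 or less. Dusp4, an ERK phosphatase, had the smallest p-value of those lower, with 72.3, 57.9 and 43.8 CPM against 34.1 and 49.1 CPM, a log2 fold change of -0.48 that was -0.23 without Sorbinil replicate 1. Nab1, a repressor of EGR proteins, had the smallest of those higher, with 30.9, 31.8 and 28.6 CPM against 48.7 and 30.8 CPM, a log2 fold change of 0.38 that was 0.03 without Sorbinil replicate 1. Both groups of values overlapped between treatments. Dusp5, whose promoter holds the CArG box and CGTCA at 7 bases, measured 35.7, 32.5 and 36.0 CPM with DMSO and 36.9 and 27.9 CPM with Sorbinil, a log2 fold change of -0.10 (-0.30 when Sorbinil replicate 1 was left out, 0.09 when replicate 3 was).

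Activity-dependent late response genes, which neurons transcribe after the immediate early genes, had a median of -0.57 over 15 genes, of which 14 were negative and none was called. The median was -1.08 in Sorbinil replicate 1, where 13 of the 15 were below every DMSO retina, and -0.05 in Sorbinil replicate 3, where 1 was. In Sorbinil replicate 1 all 10 Müller glia, 9 amacrine and 12 microglia markers were below every DMSO retina too, and 0 of 10 rod markers were. The shares of all genes that were negative, or below every DMSO retina, were not counted. In that retina 17.4% of all genes tested were at least 2-fold below the DMSO mean. Nptx1, a synaptic pentraxin, measured 85.9, 73.4 and 70.8 CPM with DMSO and 37.2 and 65.5 CPM with Sorbinil, a log2 fold change of -0.58 that was -0.22 without Sorbinil replicate 1. Homer1, a scaffold of the synapse, was the gene with a positive value, at 0.37, which was 0.09 without Sorbinil replicate 1. AP-1 target genes had a median of -0.37 over 9 genes, -0.96 in Sorbinil replicate 1 and 0.04 in Sorbinil replicate 3, and none was called. Plaur, the urokinase receptor, received 24 to 65 reads per DMSO retina, and 8 and 23 reads in the treated group, with a log2 fold change of -1.05 (-0.60 when Sorbinil replicate 1 was left out, -1.75 when replicate 3 was). Hmox1, heme oxygenase, measured 3.90, 4.32 and 3.44 CPM with DMSO and 4.95 and 4.43 CPM with Sorbinil, a log2 fold change of 0.27 with groups that did not overlap, and of 0.20 without Sorbinil replicate 1.

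The median of the 10 centred profiles over the 5 retinas lay between -0.27 (DMSO replicate 3) and 0.18 (DMSO replicate 1) on the log2 scale. Of 12847 other genes with a mean of at least 1 CPM, Sgsh, Cyp46a1, Zfp809, Snrnp35 and Zfp646 lay closest to it, with root mean square differences of 0.034 to 0.054. The members themselves lay at 0.20 (Ier2) to 0.85 (Egr2) from their own median. The 5 genes were picked for their closeness to it, so the values describe the profile and compare nothing.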

How the data were processed

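Total RNA of 5 injured retinas was sequenced from stranded libraries. Per the methods, adaptor sequence was removed and reads were mapped with the default settings of CLC Genomics Workbench, on GRCm39. The authors deposited total counts per gene, as whole numbers and with no normalization. The annotation release, multi-mapping and strand setting of the counting are not given in the sources used here. Columns were matched to retinas by name, and 0 value columns were left out. No molecular identifiers were used, so reads are not independent molecules and their counting error understates the true error. No pair of libraries agreed within sampling noise (lowest chi-square per degree of freedom 25.5).

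Counts were filtered with filterByExpr (minimum count 10) and scaled by TMM. All 14992 genes were tested with glmQLFit and glmQLFTest of edgeR 4.0.16 in R 4.3.3, with Benjamini-Hochberg adjustment over all of them. The standard error is the log2 fold change over the root of F, and the 95% interval uses the fitted degrees of freedom. Differences of single retinas use log2 CPM with a prior count of 2. Positions, lengths and promoters came from GENCODE M39 and GRCm39. No sequence of 50 bases in a member's canonical transcript occurred in the transcripts of another gene (0.0% for each of the 10). The promoter of 1 member is not reported here and was left out of the motif search. The steps were tested on simulated data.

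The members and lists were chosen with earlier results of these data known. All members are named, with each called gene and the gene of smallest p-value in each direction of each pathway list, and the 5 genes nearest to the median member profile. Dusp5, Dusp2, Mmp3 and Sik3 were named after their values or sequences were seen. One listed upstream kinase gene was matched regardless of letter case, and 1 horizontal cell marker was not found by its listed symbol. Alternatives were DESeq2 1.42.0 size factors, library-size and upper-quartile scaling, other filters, the likelihood ratio and DESeq2 Wald tests, a replicate block, other thresholds, and fits without mitochondrially encoded genes or without each retina in turn. A fit with 1 Sorbinil retina assumes that it varies like the DMSO retinas.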

Additional observations from a re-analysis of the deposited data

How the results depend on the processing

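No member was called under the other scalings, filters, tests and stricter thresholds that were run, and 2 (Fosb and Egr1) passed a raw p of 0.1 or less with no fold limit. Leaving out each retina gave 0 to 2 called members, the 2 (Fosb at 1.06 and Fosl2 at -1.28) without Sorbinil replicate 3, where 2903 of all genes were called instead of 257. Of the 5 pathway lists, 2 genes were called, 1 at a raw p of at most 0.05, 18 with no fold limit, and 0 to 27 when each retina was left out. These were 0 without DMSO replicate 2 or Sorbinil replicate 1, 1 without DMSO replicate 1 and 27 without Sorbinil replicate 3. Across the fits that left out a retina, the log2 fold change of Fos ran from -0.065 to 0.65, Junb from -0.16 to 0.45, Egr3 from -0.75 to 0.29, Arc from -0.98 to 0.00089 and Ier2 from -0.065 to 0.30, so these signs turned. Deviations from the group means correlated at -0.24 and -0.12 between the 2 pairs of retinas with the same replicate number. With 2 Sorbinil retinas the deviations of one mirror those of the other. These correlations therefore cannot decide whether replicate numbers pair the retinas. With the replicate block 0 members and 2 pathway genes were called, 203 of all genes, Egr3 turned to 0.045, and the raw p of Fosb was 0.269. With no filter 408 genes were called over all, 148 with at least 10 counts in every sample, and 164 without DMSO replicate 1. Library-size scaling moved the median of all genes from -0.01 to -0.11. The strict filter left out Egr2 and moved the members' median to 0.11. The adjusted p of Egr1 lay between 0.679 and 1.00 over the settings with all retinas. Counts under 100, as for Egr2, limit precision. The cause of these changes was not tested.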
